A study of Bos taurus with 3 samples.

Results

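The polyamine genes were read on 3 Affymetrix GeneChip Bovine Genome Arrays, where 1 or more probe sets near the 3′ end report each gene. The 10 genes listed were ODC1, AMD1, SRM, SMS, SAT1, PAOX, SMOX, OAZ1, OAZ2 and AZIN1, and their probe sets were found by the single gene symbol of the platform annotation. Of the 10 genes, 9 had a named probe set, with 12 probe sets in all among the 24016 tested. SMOX, which oxidizes spermine, had none and was not analysed here. SMS, ODC1 and AMD1 had 2 probe sets each and the other 6 genes had 1. Where 1 value per gene was needed, the probe set of highest mean over the 3 arrays was taken, which gave 9155 genes over the whole array. Levels are the deposited log2 signals (RMA, quantile normalized), on which a step of 1 is 2-fold.

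RNA came from 3 Bos taurus cell cultures, for which the labels name no genotype and no agent. Of these, 2 were Gonadal Ridge Epithelial-Like (GREL) cell isolates, polygonal cells grown from dispersed fetal ovaries and labelled as 130 days of gestation. The study describes them as clonally enriched, and its methods give isolate 1 a slightly younger age. The third held fibroblastic cells from the stroma of the ovarian medulla, grown as 1 culture from an adult animal labelled as over 1 year old. The series text describes all the cultures as grown from fetal ovaries, whereas the sample label and the methods give an adult ovary for the fibroblasts. Cell type, age, ovarian region and clonal enrichment differ together between the groups and cannot be told apart, and with 1 fibroblast array the spread of that group is unknown.

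The polyamines putrescine, spermidine and spermine are small positively charged molecules that bind nucleic acids and that growing cells need. ODC1 makes putrescine from ornithine, AMD1 decarboxylates S-adenosylmethionine to give the aminopropyl donor, and SRM and SMS use that donor to make spermidine and then spermine. SAT1 acetylates spermidine and spermine, after which PAOX oxidizes the acetylated forms back or they leave the cell. Antizymes, encoded by OAZ1 and OAZ2, bind ODC1 protein and send it to the proteasome, and AZIN1, an inactive relative of ODC1, binds the antizymes instead. In the rodent ovary, ODC1 activity is known to be induced by luteinizing hormone.

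All 4 biosynthetic enzymes were higher in both GREL isolates than in the fibroblasts at their brighter or only probe set, and SAT1 was lower in both. By any amount, 41.6% of all genes were higher in both isolates and 33.5% lower. The second, dim probe sets of SMS and ODC1 were not higher in either isolate. At 1 value per gene, 2 of the 9 genes (SMS and ODC1) were over 3-fold higher in both isolates and 0 were over 3-fold lower, against 2.38% of all genes in each direction. Over 1.5-fold, 4 of the 9 were higher in both isolates (SMS, ODC1, AMD1 and SRM), against 16.3% of all genes, and 1 was lower (SAT1), against 11.0%. The median log2 difference, mean of the isolates minus fibroblasts, was 0.45 over the 9 genes and 0.05 over all genes. In bulk RNA of a culture, fewer cells that express a gene and less RNA of it per cell cannot be told apart. SMS was named by the study as a gene over 3-fold higher on these same arrays, so its place in the list is not independent of these values. In limma, a linear model with a moderated variance that here had 1 residual degree of freedom from the isolates, no member passed an adjusted p under 0.05, nor did any of the 24016 probe sets (0% in each direction). At an unadjusted p under 0.05, 6 of the 12 member probe sets were higher and 0 lower, against 9.80% and 11.1% of all probe sets. The methods' one-way ANOVA with Benjamini-Hochberg adjustment called 0 as well, with 2 of the 12, the bright probe sets of SMS and ODC1, at an unadjusted p under 0.05, both higher. Of the 20503 probe sets whose isolates differ, 0.907% were higher and 1.01% lower at that level.

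**Figure D1:**
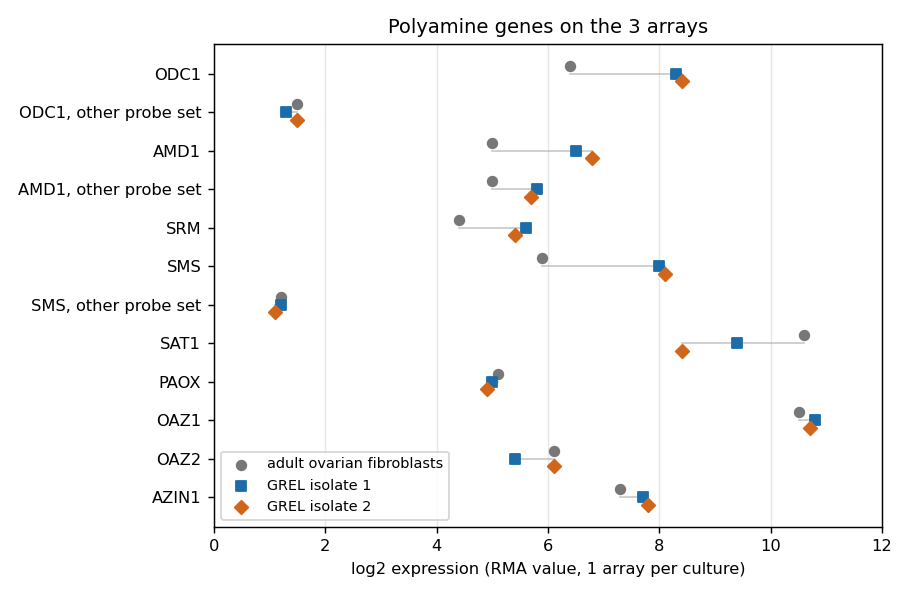
Log2 expression (horizontal axis, RMA values) of the 12 probe sets of the polyamine genes with circles for the adult fibroblasts, squares for isolate 1 and diamonds for isolate 2, 1 array each, with a line from the lowest to the highest value. The bright probe sets of ODC1 and SMS lie near 6 in the fibroblasts and above 8 or at 8.0 in the isolates, and SAT1 runs the other way, from 10.6 to 8.4.

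ODC1, the first and usually rate-limiting enzyme of the pathway, gave log2 values of 6.4 for fibroblasts and of 8.3 and 8.4 for GREL isolates 1 and 2 at its brighter probe set (Bt.7133.1.S1_at). Both isolates lay well above the fibroblasts and within 0.1 of each other. The difference was 1.95 (standard error 0.0748, 95% interval 1.52 to 2.38, adjusted p = 0.182 in limma), which is 3.73-fold and 4.0-fold. This probe set was brighter than 87.6% of all probe sets on the fibroblast array and than 96.8% and 97.1% on the arrays of the isolates, a position in signal that also depends on the affinity of its probes. Only 1.31% of all genes had differences from the fibroblasts at least as high as those of ODC1 in both isolates. The 95% intervals given here for each gene hold no spread of the fibroblasts, so they do not bound the differences, also where they leave out 0.

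AMD1, whose product supplies the aminopropyl donor, read 5.0 in fibroblasts against 6.5 and 6.8 in isolates 1 and 2 at its brighter probe set (Bt.22574.1.S1_at). Its second probe set (Bt.370.1.S1_at) also read 5.0 in fibroblasts against 5.8 and 5.7 in isolates 1 and 2. Both probe sets therefore placed the isolates above the fibroblasts, by amounts that differed. The first differed by 1.65 (standard error 0.211, adjusted p = 0.20 in limma) and the second by 0.75 (standard error 0.0748, adjusted p = 0.195 in limma). As folds these are 2.83 and 3.48 for isolates 1 and 2 at the first probe set and 1.74 and 1.62 at the second, so AMD1 was just short of 3-fold in isolate 1 and past it in isolate 2.

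SRM, spermidine synthase, was measured by 1 probe set (Bt.9078.2.S1_a_at), at 4.4 in fibroblasts against 5.6 and 5.4 in isolates 1 and 2. This difference of 1.10 (95% interval 0.28 to 1.92, standard error 0.142, with a limma adjusted p = 0.20) came to 2.30-fold in isolate 1 and 2.0-fold in isolate 2 and was 5.5 times the gap between the isolates. Of all genes, 5.24% had differences from the fibroblasts at least as high as those of SRM in both isolates.

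SMS, spermine synthase, read 5.9 in fibroblasts against 8.0 and 8.1 in isolates 1 and 2 at its brighter probe set (Bt.14326.1.S1_at). It had the largest difference of the members that were higher in the isolates, 2.15 (standard error 0.0748, 95% interval 1.72 to 2.58, adjusted p = 0.182 in limma). It was 21.5 times the gap of 0.1 between the isolates, a gap that is also the rounding step of the deposited values, so its standard error rests on 1 such step. The same holds for the other member probe sets with a standard error of 0.0748. Among the 9155 genes SMS ranked 121 by the mean difference and ODC1 ranked 166. By the isolate with the smaller difference they ranked 80 and 108.

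The second probe sets of SMS and ODC1 did not show these differences. That of SMS (Bt.14326.2.A1_at) read 1.2 in fibroblasts against 1.2 and 1.1 in isolates 1 and 2, and that of ODC1 (Bt.28715.1.A1_at) read 1.5 in fibroblasts against 1.3 and 1.5 in isolates 1 and 2. Both were among the dimmest on each array, with 3.41% to 6.60% of probe sets below that of SMS and 9.48% to 14.4% below that of ODC1. Averaged over both probe sets, the difference was 1.05 for SMS and 0.93 for ODC1, and then 0 of the 9 genes were over 3-fold higher. Among the 2913 genes with over 1 probe set, 15% had probe sets more than 4 log2 units apart in level, as these genes do (6.17 and 6.27). In the difference from the fibroblasts, only 5.63% had probe sets more than 1.5 log2 units apart, as SMS (2.2) and ODC1 (2.05) do. The 218 genes over 3-fold higher in both isolates had 82 further probe sets, of which 14 (17.1%) were also past that fold. The identifiers of the dim probe sets carry the letter A before the last digit, and named probe sets with an A had a median log2 level of 2.67 (n = 3726), against 4.13 for those with an S (n = 9566). The probe set of AZIN1 also carries an A and was bright, and the part of probe design in these disagreements was not tested.

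**Figure D2:**
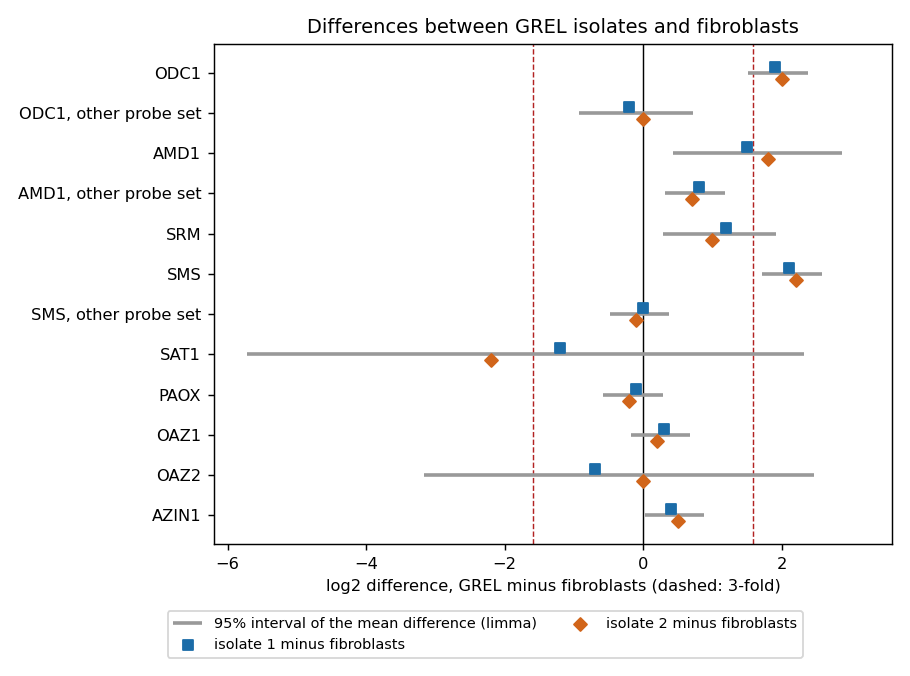
Log2 difference from the fibroblasts (horizontal axis) of GREL isolate 1 (squares) and isolate 2 (diamonds) for each probe set of the polyamine genes, with the 95% interval of the mean difference from limma as a bar and dashed lines at 3-fold. The intervals of the bright probe sets of ODC1 and SMS start at 1.52 and 1.72, and that of SAT1 runs from -5.72 to 2.32. No interval holds a spread of the fibroblasts.

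SAT1, the acetyltransferase that starts polyamine breakdown and export, ran opposite to the biosynthetic enzymes. It was at 10.6 in the fibroblasts, above 99.5% of the probe sets of that array, at 9.4 in GREL isolate 1 and at 8.4 in isolate 2 (Bt.7594.1.S1_at). Both isolates were lower than the fibroblasts, by 2.30-fold and 4.59-fold, and they were also 1.0 apart from each other. Only 2.99% of all genes had isolates that far apart. The difference of -1.70 (95% interval -5.72 to 2.32, standard error 0.697, limma adjusted p = 0.380) was 1.70 times that gap, and the interval includes 0. SAT1 passed 3-fold in isolate 2 alone, and 1.74% of all genes had differences from the fibroblasts as low or lower in both isolates.

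PAOX, the oxidase of acetylated polyamines, read 5.1 in fibroblasts against 5.0 and 4.9 in isolates 1 and 2. The difference of -0.15 (standard error 0.0748, limma adjusted p = 0.392) lay close to the rounding step, and its 95% interval was -0.58 to 0.28. That interval rests on an isolate gap of 1 rounding step and holds no spread of the fibroblasts, so it does not bound the difference. The breakdown genes measured thus gave unlike values, with SAT1 lower by 1.70 and PAOX by 0.15.

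The antizyme OAZ1 read 10.5 in the fibroblasts, 10.8 in isolate 1 and 10.7 in isolate 2. Its difference was 0.25 (standard error 0.0748, 95% interval -0.18 to 0.68, adjusted p = 0.286 in limma). OAZ2 was at 6.1 in the fibroblasts, 5.4 in isolate 1 and 6.1 in isolate 2. Only isolate 1 departed from the fibroblasts, so the difference of -0.35 (standard error 0.488, limma adjusted p = 0.683) was smaller than the gap between the isolates. AZIN1, the antizyme inhibitor, read 7.3 in fibroblasts against 7.7 and 7.8 in isolates 1 and 2, which is 0.45 higher (standard error 0.0748, 95% interval 0.02 to 0.88, adjusted p = 0.227 in limma). Differences from the fibroblasts at least as high in both isolates were found in 22% of all genes for AZIN1 and 30.3% for OAZ1. Antizyme synthesis depends on a shift of the ribosome's reading frame that responds to polyamines, which an mRNA level does not measure.

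**Figure D3:**
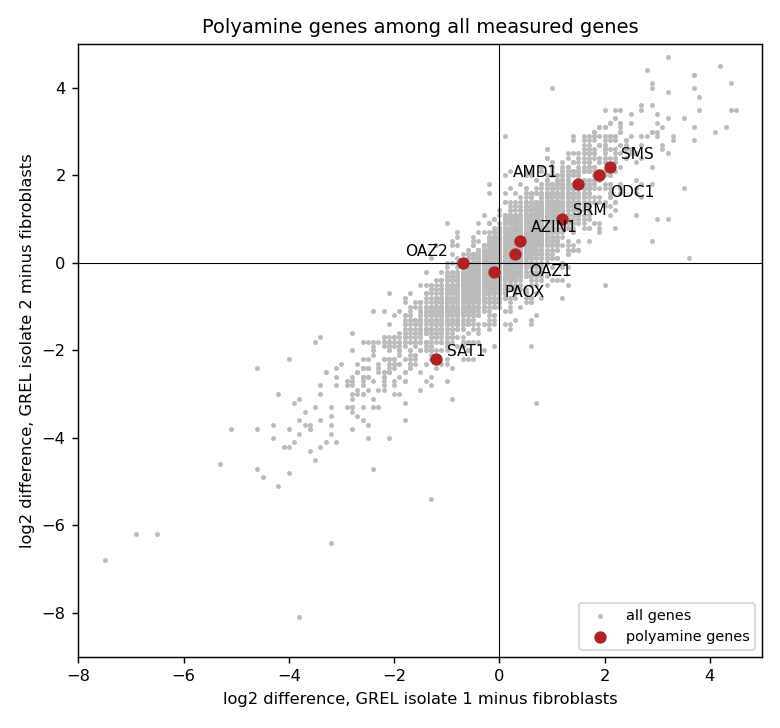
Log2 difference from the fibroblasts in GREL isolate 1 (horizontal axis) and GREL isolate 2 (vertical axis) for all 9155 genes at 1 value per gene (grey) and for the 9 polyamine genes (red, named). Both axes share the fibroblast array. SMS, ODC1, AMD1 and SRM lie at the upper right, SAT1 at the lower left, and the remaining polyamine genes near the middle.

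Probe sets of genes of other organs gave a rough background level, though some of these genes may be expressed here. Over 3-fold in both isolates, 1 of 53 (TF) was higher and 3 (SST, CKM and MYH7) lower, against 2.38% of all genes each way. The 95th percentile of 53 such genes was 8.34 on the fibroblast array and 8.64 and 8.78 on those of isolates 1 and 2, raised by bright probe sets such as those of POMC, PRL and APOA1, and their median was 2.0, 1.8 and 1.9. Above the 95th percentile lay OAZ1 on all 3 arrays and SAT1 in the fibroblasts and isolate 1. The 90th percentile was 6.16, 6.92 and 6.64. Above it in both isolates lay 5 of the 9 genes (OAZ1, SAT1, ODC1, SMS and AZIN1), and in the fibroblasts 4 (the same without SMS). AMD1 passed it in isolate 2 alone, and SRM, PAOX and OAZ2 on no array. Just under that level on the fibroblast array, OAZ2 at 6.1 was brighter than 85.1% of all probe sets. Just over it in isolate 2, AMD1 at 6.8 was brighter than 89.7%. A gene below these levels may still be expressed, but a low value leaves the size of its fold less certain, also for SMS in the fibroblasts.

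The cultures also differed in markers of cycling cells and of cell type. All 14 measured cell cycle markers, among them CCNB1, RRM2 and PCNA, were over 1.5-fold higher in both isolates, against 16.3% of all genes. Over 3-fold 10 were higher, against 2.38% of all genes, and the median log2 difference of the 14 was 2.38. All 14 were higher in isolate 2 than in isolate 1, by a median of 0.85, whereas isolate 2 was above isolate 1 by 0.1 for SMS and ODC1 and by 0.3 for AMD1, and below it by 0.2 for SRM. Of 7 measured epithelial markers 3 (KRT19, PKP2 and KRT7) were over 3-fold higher in both isolates, against 2.38% of all genes. The log2 of the summed signal of the 7 was 10.57 for fibroblasts, 12.39 for isolate 1 and 12.73 for isolate 2. EPCAM (1.0, 3.9 and 1.5) and KRT8 (2.1, 2.9 and 3.2) were dim in each culture. KRT18 was bright in each (10.4, 11.4 and 11.8), and CDH1 was higher in isolate 1 but lower in isolate 2 (3.6, 4.7 and 3.2). Of 10 stromal markers 7 were over 1.5-fold lower in both isolates, and 2 (PDGFRA and TCF21) were over 3-fold lower in both. The log2 summed signal of the 10 was 13.66 in the fibroblasts, 13.12 in isolate 1 and 12.50 in isolate 2. DCN (11.4, 10.8 and 10.1) and COL3A1 (11.3, 10.7 and 10.2) were lower in both isolates but bright in each culture. VIM (10.9, 10.9 and 10.8) was nearly level, and THY1 (4.3, 4.9 and 3.4) was higher in isolate 1 but lower in isolate 2. Of the 10 stromal markers, 9 were lower in isolate 2 than in isolate 1, as were 4 of the 9 polyamine genes (SAT1, SRM, OAZ1 and PAOX). The 5 granulosa markers lay between 1.1 and 4.5 over the 3 arrays, with INHA the only one above 2.2 (4.1 in fibroblasts, 4.4 and 4.5 in isolates 1 and 2). FOXL2, whose protein the study also stained in GREL cells of tissue sections, read 1.8, 1.9 and 2.0. The 5 endothelial markers lay between 1.3 and 3.0, with TEK (3.0, 2.4 and 2.6) and CDH5 (2.4, 2.2 and 2.4) the highest. The 5 leukocyte markers lay between 1.2 and 2.8, with CD14 at 2.6, 1.4 and 2.1 and CD68 at 2.0, 2.1 and 2.8. The germ cell marker POU5F1, the only one measured, lay between 2.3 and 2.5. Of 5 smooth muscle markers, 4 (ACTA2, TAGLN, CNN1 and DES) were at 7.8 or above on every array, with ACTA2 at 10.5, 10.4 and 10.7. CNN1 (8.5, 8.1 and 7.8) and DES (9.5, 8.3 and 8.1) were lower in both isolates, and MYH11 did not exceed 1.9. In the order fibroblasts, isolate 1 and isolate 2, the log2 summed signal was 4.92, 5.13 and 5.16 for the granulosa list and 4.53, 4.24 and 4.46 for the endothelial list. It was 4.39, 4.06 and 4.44 for the leukocyte list and 11.86, 11.65 and 11.64 for the smooth muscle list, and no gene of these lists was over 3-fold apart in both isolates. The part of the cell cycle and of the cell type markers in the polyamine values was not tested.

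The genes of steps that feed or follow the polyamine pathway differed about as often as all genes at 1.5-fold. Of 54 genes listed in 7 groups 37 were measured. Over 1.5-fold in both isolates, 6 were higher and 4 lower (16.2% and 10.8%, against 16.3% and 11.0% of all genes). Over 3-fold, 2 were higher and 1 lower (5.41% and 2.70%, against 2.38% of all genes in each direction), and the median log2 difference was 0.10. No gene of these groups passed limma.

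Among 8 genes of arginine and ornithine metabolism, 2 were over 3-fold higher in both isolates, against 2.38% of all genes. GATM, which releases ornithine as it makes the creatine precursor, read 4.3 in fibroblasts against 7.5 and 6.8 in isolates 1 and 2 (adjusted p = 0.235 in limma). ASL, which makes arginine, read 3.1 in fibroblasts against 4.7 and 5.5 in isolates 1 and 2, and at 2.6, 2.9 and 3.1 at its other probe set. On the lower side, PYCR1, a proline-making enzyme, read 6.6 in fibroblasts against 5.9 and 4.8 in isolates 1 and 2. ALDH18A1, which acts on the route from glutamate to proline and ornithine, was at 8.3 and at 8.1 and 7.8.

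The methionine cycle supplies the S-adenosylmethionine that AMD1 uses, and MAT2A of its list was not measured. Of its 9 measured genes, 1 was over 1.5-fold higher in both isolates, against 16.3% of all genes. This was AHCY, which removes S-adenosylhomocysteine, at 8.1 in fibroblasts against 9.0 and 8.8 in isolates 1 and 2. GNMT, a glycine methyltransferase, was next, at 2.6 in fibroblasts against 3.0 and 3.7. BHMT and MTRR, at the low end of the group, did not exceed 1.5 on any array. All 4 measured genes of methionine salvage, which recycles the by-product of SRM and SMS, were higher in both isolates by some amount, as were 41.6% of all genes. MTAP of the salvage list was not measured. APIP read 5.1 in fibroblasts against 6.0 and 5.8 in isolates 1 and 2, and ADI1 at 5.6 and at 5.8 and 6.5, while MRI1 and ENOPH1 had differences of 0.50 and 0.15.

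Hypusine, a modified lysine that DHPS builds from spermidine on the translation factor EIF5A, was represented by 2 genes, and EIF5A itself was not measured. DHPS read 5.2 in fibroblasts against 5.4 in each isolate, and DOHH was at 2.9 in all 3 cultures. Of 4 transport genes none was over 1.5-fold higher or lower in both isolates. ATP13A3, a polyamine transporter, read 7.0 in fibroblasts against 6.8 and 6.7 in isolates 1 and 2, and the amino acid transporter chain SLC3A2 at 7.3 and at 7.1 and 6.2. SLC7A1, a carrier of arginine and ornithine, was at 4.6, 5.0 and 4.5, and ATP13A2 at 3.3, 3.2 and 3.1.

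Of 7 genes of other amine breakdown, AOC3, an amine oxidase of vessel and fat cells, was over 3-fold lower in both isolates at 1 of its 3 probe sets. That one read 4.6 in fibroblasts against 1.8 and 1.9 in isolates 1 and 2 (adjusted p = 0.182 in limma), and the others gave differences of -0.80 and -0.05. MAOA, a monoamine oxidase, read 5.2 in fibroblasts against 3.6 and 3.9 in isolates 1 and 2. SAT2, a relative of SAT1, lay the other way, at 2.3 in fibroblasts against 3.0 and 4.2, and MAOB had a difference of 0.25. MYC, a transcription factor known to act on ODC1, read 7.0 in fibroblasts against 7.9 and 7.2 in isolates 1 and 2. MXI1, which competes with MYC for its partner MAX, was at 6.7 in fibroblasts against 5.4 and 4.7. All 3 probe sets of MXI1 were lower in both isolates, with differences of -1.65, -1.70 and -0.80, and MAX was at 2.6 in fibroblasts against 2.3 in each isolate.

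**Figure D4:**
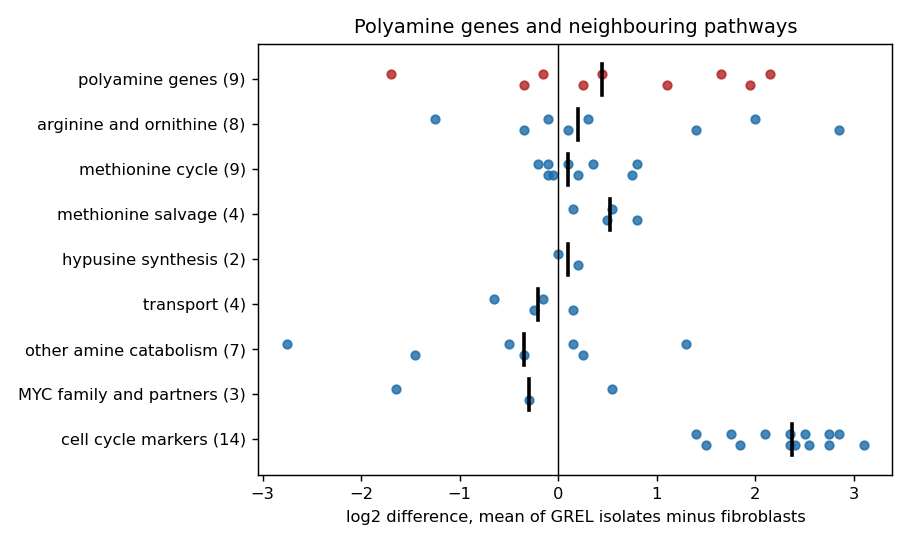
Mean GREL value minus fibroblast value in log2 units (horizontal axis), drawn as 1 point per measured gene, of the polyamine genes, 7 neighbouring groups and the cell cycle markers, where brackets count the genes of a group and a vertical bar marks its median. The medians are 0.45 for the polyamine genes and 2.38 for the cell cycle markers, and those of the neighbouring groups lie between -0.35 and 0.53.

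The genes whose pattern over the 3 arrays was closest to that of SMS were taken by the Euclidean distance between log2 values, each centred on its own mean. CLDN11, MB21D2, PTPRK and STK17A were each at a distance of 0.082. CCL2 followed at 0.14, the first by symbol of 6 genes at that distance. STK17A, a kinase, read 5.3 in fibroblasts against 7.5 and 7.6 in isolates 1 and 2, and the claudin CLDN11 at 2.1 and at 4.1 and 4.2. With 3 arrays and values in steps of 0.1, many genes share nearly the same pattern.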

How the data were processed

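Expression was measured in 3 cultures, 1 array each. The authors deposited log2 values after RMA background subtraction and quantile normalization (Partek 6.5 and RMA in the submitters' processing notes), and these values are rounded to steps of 0.1. Detection calls were not used here and no genome build is given in the sources used here. The table held 24128 probe sets, from which the 112 controls of the array were removed. Of the 24016 tested, 13292 had 1 gene symbol, 86 several and 10638 none, and 0 symbols differed from the current bovine gene table, which held the identifiers of 13263.

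GREL isolates were compared with fibroblasts by limma 3.58.1 (lmFit and eBayes, R 4.3.3) over all 24016 probe sets with Benjamini-Hochberg adjustment, at an adjusted p under 0.05. There was 1 residual degree of freedom, from the 2 isolates, and the fibroblasts were assumed to vary like them, so p-values measure only the spread between 2 cultures. In 3513 probe sets the isolates were identical after rounding. Tested on simulated data with known differences, the fit returned their sizes but called none of them. Genes past 3-fold or 1.5-fold in both isolates were counted with no test. Tables were made in Python 3.11.15 (pandas 2.3.3, numpy 2.4.6). The array number limits the precision.

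Members, gene lists and tests were chosen with earlier results of these data known. Named were all members at every probe set, the 2 highest and 2 lowest genes of each neighbouring list with any past 3-fold in both isolates, and the 5 genes nearest to SMS. Alternatives were the methods' one-way ANOVA, an intensity trend, a robust prior, quantile normalization again, a floor on the variance, removal of dim probe sets, median centring, 1 probe set or the mean over probe sets per gene, a 2-fold threshold, the mean of the isolates and leaving out either isolate.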

Additional observations from a re-analysis of the deposited data

How the results depend on the processing

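Of the 81 alternative values computed for the 9 genes, 80 kept the sign of the difference and 1, that of OAZ2 without isolate 1, was 0. Many of these could not change sign, as the intensity trend, robust prior, variance floor and one-way ANOVA leave the difference as it is. The mean over probe sets likewise changes nothing where a gene has 1 probe set. Across the array limma made 0 calls in each direction, as it did with an intensity trend, quantile normalization again, median centring, dim probe sets left out or 1 probe set per gene. A robust prior called 571 higher and 618 lower, with 0 of the 12 member probe sets (lowest adjusted p = 0.0873). A floor on each variance from the rounding step made the fit use 1 spread for every probe set (standard error 0.340) and called 1756 higher and 1478 lower, with SMS, ODC1, AMD1 and SRM higher and SAT1 lower. The adjusted p of SMS ran from 1.33e-08 there to 0.663 in the methods' one-way ANOVA. The median difference of the 9 genes was 0.35 after quantile normalization again and 0.40 to 0.50 with either isolate left out. The number of genes over 3-fold higher was 0 with the mean over probe sets, 2 to 3 with either isolate left out, and 3 by the mean of the isolates, AMD1 being added. Over 3-fold lower there was 1 gene (SAT1) by the mean of the isolates, while leaving out either isolate gave 0 to 1, the 1 being without isolate 1. At a 2-fold threshold in both isolates 3 genes were higher and 1 lower, against 5.80% and 4.78% of all genes. Over 1.5-fold there were 4 higher and 1 to 2 lower with either isolate left out, OAZ2 being added without isolate 2. The means over probe sets were 1.20 for AMD1, 0.93 for ODC1 and 1.05 for SMS. No paired analysis was possible because the fibroblast group has 1 array and the groups share fewer than 2 replicate numbers.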
